A study of Ovis aries with 3 samples.

Results

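The miR-17-92, miR-106b-25, and miR-106a-363 clusters were followed through small RNA libraries of Small tailed Han sheep, made from duodenum (DU), cecum (CE), and colon (CO). The members were the rows of the count files named oar-miR-17, oar-miR-18a, oar-miR-19b, oar-miR-25, oar-miR-106a, or oar-miR-106b, with or without a strand suffix. Of these 6 names, 5 had a row (oar-miR-17-5p, oar-miR-19b, oar-miR-25, oar-miR-106a, and oar-miR-106b), and oar-miR-18a had none. The files hold 146 known sheep miRNAs, of which these are 5, and 676 predicted entries. RNA of the same 3 ewes, aged 11 months and with no treatment named, was pooled for every library, with tissue taken from the intestinal epithelium and, for the colon, from its proximal part. There was thus 1 library per segment and no replicate, and every comparison below is one of libraries, without a check against the spread between animals.

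The 3 clusters are paralogous, which means that they arose by duplication and carry related miRNAs. Each is transcribed as a single primary RNA from which several hairpins are cut. The miRNAs are grouped by the seed, the stretch of bases near the 5′ end that pairs with target mRNAs, and members of a seed family share many targets. The miR-17-92 cluster is activated by the transcription factor MYC, is highly expressed in dividing cells such as crypt cells of the intestine and germinal centre lymphocytes, and promotes proliferation and survival. The miR-106b-25 cluster lies in an intron of MCM7, the gene of a subunit of the replicative helicase, and is co-transcribed with it. The miR-106a-363 cluster lies on the X chromosome and is usually the least expressed of the 3. In the RefSeq annotation of the sheep assembly ARS-UI_Ramb_v3.0, which is not the build the authors mapped to, MIR17 and MIR19B were direct neighbours, MIR106B and MIR25 were direct neighbours inside MCM7, and MIR106A had no other annotated miRNA of these clusters next to it.

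The other cluster miRNAs are not in the files under sheep names. Predicted entries were therefore linked to them by mature sequence, identical or with 1 sequence containing the other. This gave an entry each for miR-18a, miR-19a, miR-20a, miR-92a, miR-93, miR-20b, and miR-363, and for miR-32, which has the seed of miR-92a but lies outside the clusters. No entry was linked to miR-18b, miR-92b, or the other strands of the hairpins, which were not analysed here. With the 5 members, 13 entries were described, 12 of them in the clusters.

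The sequences below are those of the count files, 5′ to 3′, and are shown because the seed sets the family and because a single base separates some members. Capitals mark the family heptamer, at bases 2 to 8 except in oar-miR-25. The deposited oar-miR-25 starts 1 base later than its relatives, so that the heptamer of the miR-92 family stands at bases 1 to 7 and its own bases 2 to 8 are TTGCACT.
oar-miR-17-5p: cAAAGTGCttacagtgcaggta
oar-miR-106a: aAAAGTGCttacagtgcaggt
oar-miR-106b: tAAAGTGCtgacagtgcagat
miR-20a entry: tAAAGTGCttatagtgcaggtag
miR-20b entry: cAAAGTGCtcacagtgcaggtag
miR-93 entry: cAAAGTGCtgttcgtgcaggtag
miR-18a entry: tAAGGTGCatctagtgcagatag
oar-miR-19b: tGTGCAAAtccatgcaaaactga
miR-19a entry: tGTGCAAAtctatgcaaaactg
oar-miR-25: ATTGCACttgtctcggtctga
miR-92a entry: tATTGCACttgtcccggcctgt
miR-363 entry: aATTGCACggtatccatctgcg
miR-32 entry: tATTGCACattactaagttgca

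Aligned at the heptamer and counted from the 5′ end of the first sequence, oar-miR-17-5p and oar-miR-106a differed at 1 of 21 bases (C1A), and oar-miR-17-5p and the miR-20b entry at 1 of 22 (T10C). The pair of miR-19b and miR-19a differed by C11T. oar-miR-17-5p and oar-miR-106b differed at 3 of 21 bases (C1T, T10G, and G20A), and oar-miR-25 and the miR-92a entry also at 3 of 21 (T13C, T17C, and A21T). The authors matched reads to mature sequences without mismatch but let them start off the mature end. A read that lacks the first base therefore fits both oar-miR-17-5p and oar-miR-106a, and how the authors assigned such reads is not given in the sources used here. The counts of this pair are uncertain to that extent. In mammals, miR-19b and miR-92a are also encoded a further time in the miR-106a-363 cluster, and reads of both copies cannot be told apart, so they were counted with miR-17-92 here.

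Values are given in the order DU, CE, and CO throughout. The count files summed to 14462675, 15072945, and 13769740 reads. Levels are given as normalized reads, scaled to 1000000 clean reads that mapped to the genome, so that 3 reads equal 0.179, 0.176, and 0.181. oar-miR-143, which is known from smooth muscle and other mesenchymal cells, took 31.9%, 48.4%, and 48.0% of the counted reads, although the study's methods name the intestinal epithelium as the tissue taken. Epithelial miRNAs were present as well, but not all of them in each library. oar-miR-200c had 8108, 6592, and 8886 normalized reads and oar-miR-194 with its longer entry 17964, 4382, and 6687. The miR-192 entries had 57806, 28847, and 0, and miR-375 had no linked entry. Levels carry exact Poisson and shares Wilson 95% intervals, and log2 ratios carry exact 95% intervals from the split of the reads between both libraries. All of them cover counting error only.

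Together, the 5 members had 37800, 24577, and 25318 reads, which made up 0.261% of the counted reads in DU (0.259 to 0.264%), 0.163% in CE (0.161 to 0.165%), and 0.184% in CO (0.182 to 0.186%). oar-miR-25 alone gave most of these. The order of the members was the same in each library, with oar-miR-25 first, followed by oar-miR-17-5p, oar-miR-106b, oar-miR-19b, and oar-miR-106a. The intervals of oar-miR-106b and oar-miR-19b overlapped in the DU and CE libraries but not in the CO library, and all other neighbours in this order were apart.

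**Figure D1:**
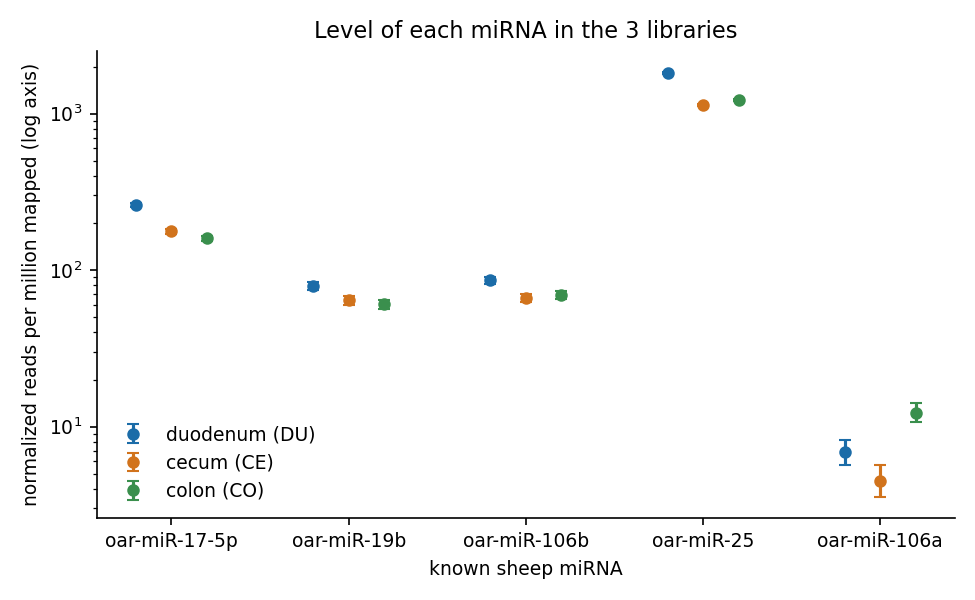
Normalized reads per 1000000 mapped reads (log axis) of the 5 members in the DU, CE, and CO libraries, 1 point per library, with bars for the exact Poisson 95% interval of the count. The point of the duodenum is the highest for 4 members, while for oar-miR-106a the point of the colon is the highest at 12.3 normalized reads.

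oar-miR-25, a miRNA of the miR-92 seed family that is cut from the MCM7 intron, had 30531, 19283, and 20311 reads. Its normalized level was 1825 in DU (interval 1804 to 1845), 1134 in CE (1118 to 1150), and 1226 in CO (1209 to 1243). The DU library was the highest, and the intervals of the 3 libraries did not overlap. Among the known miRNAs of each library, it ranked at place 25, 27, and 28.

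oar-miR-106b, which has the seed of miR-17 and comes from the same primary RNA as miR-25, had 1442, 1126, and 1150 reads. Its level was 86.2 (81.8 to 90.7), 66.2 (62.4 to 70.2), and 69.4 (65.5 to 73.5) normalized reads. The DU library was again the highest, and the intervals of the CE and CO libraries overlapped.

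oar-miR-17-5p, the first miRNA of the miR-17-92 cluster, had 4390, 3003, and 2652 reads, or 262 (255 to 270), 177 (170 to 183), and 160 (154 to 166) normalized reads. oar-miR-19b, a miRNA of the same cluster with the seed of the miR-19 family, had 1322, 1088, and 1001 reads, or 79.0 (74.8 to 83.4), 64.0 (60.2 to 67.9), and 60.4 (56.7 to 64.3) normalized reads. Both were highest in the DU library and lowest in the CO library, and for oar-miR-19b the intervals of the CE and CO libraries overlapped.

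oar-miR-106a, from the X-linked cluster, had only 115, 77, and 204 reads. Its level was 6.87 normalized reads in DU (5.67 to 8.25), 4.53 in CE (3.57 to 5.66), and 12.3 in CO (10.7 to 14.1). It was the only member with the highest level in the CO library, whose interval lay above those of both other libraries.

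The DU and CE libraries, the most proximal and a fermenting segment, were compared first. All 5 members had fewer normalized reads in the CE library, with log2 ratios of CE to DU from -0.69 to -0.30. The ratio of oar-miR-25 was -0.69 (-0.71 to -0.66), or 1.61-fold toward the DU library, that of oar-miR-106a -0.60 (-1.04 to -0.17), that of oar-miR-17-5p -0.57 (-0.64 to -0.50), that of oar-miR-106b -0.38 (-0.49 to -0.27), and that of oar-miR-19b -0.30 (-0.42 to -0.19). An entry was called when its fold change was at least 2 and its p, from the exact Audic-Claverie test with Bonferroni correction over all entries tested, was under 0.01. By this rule 0 of 5 members were called, where 36.5% of the 348 entries tested and 11.8% of the 93 known miRNAs tested were called. The corrected p alone was under 0.01 for 4 of 5 members, and for oar-miR-106a it was 1 (exact Audic-Claverie test). Over the other library sizes, this count ranged from 2 to 4 members, and with all clean reads, the total in the study's own formula, it was 3, with oar-miR-19b at a corrected p of 0.0351 (exact Audic-Claverie test). The median log2 ratio was -0.57 over the members, -0.31 over all entries tested, and 0.27 over the known miRNAs tested.

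Between the DU and CO libraries, the members divided. oar-miR-17-5p had a log2 ratio of CO to DU of -0.71 (-0.78 to -0.64), a 1.64-fold difference toward the DU library. It was followed by oar-miR-25 with -0.57 (-0.60 to -0.55), oar-miR-19b with -0.39 (-0.51 to -0.27), and oar-miR-106b with -0.31 (-0.43 to -0.20). In the other direction, oar-miR-106a had a log2 ratio of 0.84 (0.50 to 1.18), a 1.79-fold difference toward the CO library with a corrected p of 0.000163 (exact Audic-Claverie test). None reached a fold change of 2, so 0 of 5 members were called, against 33.9% of the entries tested and 6.38% of the 94 known miRNAs. For all 5 members the corrected p was under 0.01, but over the other library sizes this held for 3 to 5 members. With all clean reads it held for 4, with oar-miR-106b at a corrected p of 0.0766, and with the sum of the known miRNAs oar-miR-106a was at 0.0487 (exact Audic-Claverie test). The median log2 ratio was -0.39 over the members, -0.19 over all entries tested, and 0.22 over the known miRNAs.

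The CO and CE libraries, both from the large intestine, differed in oar-miR-106a. The ratio of CE to CO for this miRNA was -1.44 on the log2 scale (-1.84 to -1.06), or 2.72-fold toward the CO library (2.08 to 3.58), with a corrected p of 8.12e-13 (exact Audic-Claverie test). It was the 1 member called of 5, where 22.7% of the 326 entries tested were called in either direction and 12.9% as higher in CO, and where 2.13% of the 94 known miRNAs were called, all as higher in CO. The call of oar-miR-106a takes counting noise as the only error. The exact test of edgeR was also run with an assumed spread between libraries beyond counting noise. At a coefficient of variation of 0.2, the corrected p of this exact test was 0.571, and at 0.4 it was 1. Every library pools the same 3 ewes, so this spread is not that between single animals. The other 4 members lay near 0, with log2 ratios of -0.11 (-0.14 to -0.08) for oar-miR-25, -0.07 (-0.19 to 0.05) for oar-miR-106b, 0.08 (-0.04 to 0.21) for oar-miR-19b, and 0.14 (0.07 to 0.22) for oar-miR-17-5p. The direction of oar-miR-19b and oar-miR-106b in this comparison also depended on the library size. The median log2 ratio was -0.07 over the members, -0.06 over all entries tested, and 0.08 over the known miRNAs.

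The linked entries extended these values to the whole clusters. All 6 entries of miR-17-92, the 3 entries of miR-106b-25, and miR-32 were highest in the DU library. Under 1 of 7 library sizes, however, miR-19b and miR-93 were higher in CE than in DU. Among all entries tested, 213 were higher in DU and 135 in CE, and 207 were higher in DU and 156 in CO. Among the known miRNAs tested, 36 were higher in DU and 57 in CE, and 42 were higher in DU and 52 in CO. The entries of a cluster are cut from a single primary RNA, so they are not separate observations. All 3 entries of miR-106a-363 were highest in the CO library and lowest in the CE library, although the log2 ratio of CO to DU of miR-363 ranged from -0.10 to 0.37 over the library sizes. The clusters were fixed from the gene order known in mammals and not from these counts, but earlier results of these counts were known when they were chosen.

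In the miR-17-92 cluster, the miR-92a entry was the most abundant with 74340, 48162, and 49004 reads, or 4443, 2832, and 2958 normalized reads. The miR-20a entry, which has the seed of miR-17, had 963, 733, and 647 normalized reads from 16114, 12462, and 10713 reads. The entries of miR-19a (23.7, 16.5, and 15.1 normalized reads) and miR-18a (9.02, 5.65, and 5.61) were far less abundant. In each of these entries the DU library was the highest. Their log2 ratios of CE to DU ranged from -0.68 for miR-18a (-1.06 to -0.30) to -0.39 for miR-20a (-0.43 to -0.36). Summed over its 6 entries, the cluster had 5780, 3828, and 3846 normalized reads. The log2 ratio of the sum was -0.59 (-0.61 to -0.58) from DU to CE, -0.59 (-0.60 to -0.57) from DU to CO, and -0.01 (-0.02 to 0.01) from CO to CE, the last with an interval that includes 0 and a sign that depended on the library size. Within the cluster, miR-92a took 76.9%, 74.0%, and 76.9% of the reads, and miR-20a took 16.7% in DU (16.4 to 16.9%), 19.1% in CE (18.8 to 19.4%), and 16.8% in CO (16.5 to 17.1%).

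In the miR-106b-25 cluster, the entry of miR-93, which has the seed of miR-17, had 4351, 3685, and 3160 reads, or 260, 217, and 191 normalized reads. Its log2 ratio was -0.26 (-0.33 to -0.20) from DU to CE and -0.45 (-0.51 to -0.38) from DU to CO. The sum of the cluster was 2171, 1417, and 1486 normalized reads, with log2 ratios of -0.62 (-0.64 to -0.59) from DU to CE, -0.55 (-0.57 to -0.52) from DU to CO, and -0.07 (-0.09 to -0.04) from CO to CE. The last ranged from -0.16 to 0.0047 over the library sizes, so its sign depended on them too. Although the 3 miRNAs come from a single primary RNA, the shares of their reads differed between these 3 libraries, by intervals that cover counting error only. miR-25 took 84.1% (83.7 to 84.4%) of the reads of the cluster in the DU library but 80.0% (79.5 to 80.5%) in the CE library and 82.5% (82.0 to 83.0%) in the CO library. The share of miR-93 was 12.0% in DU (11.6 to 12.3%), 15.3% in CE (14.8 to 15.8%), and 12.8% in CO (12.4 to 13.3%).

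In the miR-106a-363 cluster, the miR-20b entry had 86, 68, and 132 reads, or 5.14, 3.999, and 7.97 normalized reads. The miR-363 entry, a member of the miR-92 seed family, had 193, 127, and 204 reads, or 11.5, 7.47, and 12.3 normalized reads. From CO to CE, the log2 ratio was -0.99 (-1.44 to -0.56, corrected p = 0.000712) for miR-20b and -0.72 (-1.05 to -0.39, corrected p = 0.00242) for miR-363 in the exact Audic-Claverie test, both under a fold change of 2. For miR-20b this depended on the library size. Its ratio ranged from -1.09 to -0.92 over the 7 library sizes and was past a fold change of 2 with all clean reads (-1.02). That of miR-363 ranged from -0.81 to -0.65. From DU to CO, it was 0.63 (0.23 to 1.04) for miR-20b with a corrected p of 0.632 and 0.09 (-0.20 to 0.39) for miR-363 with a corrected p of 1 (exact Audic-Claverie test), so neither passed the correction. The sum of oar-miR-106a, miR-20b, and miR-363 was 394, 272, and 540 reads, or 23.5 (21.3 to 26.0), 16.0 (14.2 to 18.01), and 32.6 (29.9 to 35.5) normalized reads. The log2 ratio of this sum was -0.56 (-0.79 to -0.33) from DU to CE, 0.47 (0.28 to 0.66) from DU to CO, and -1.03 (-1.24 to -0.81) from CO to CE, or 2.04-fold toward the CO library.

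**Figure D2:**
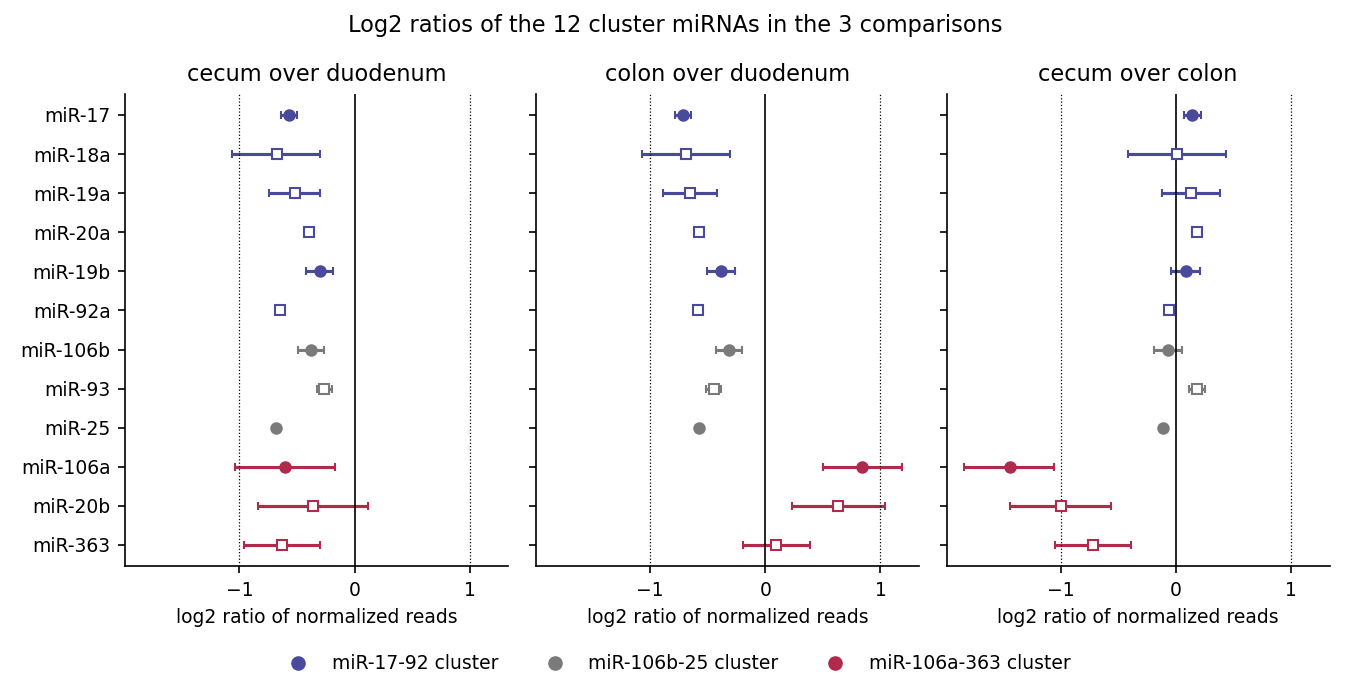
Log2 ratios of normalized reads for the 12 cluster miRNAs, coloured by cluster, in the comparisons of cecum over duodenum, colon over duodenum, and cecum over colon. Filled circles are the 5 members, open squares the linked entries, bars the exact 95% intervals, and dotted lines a fold change of 2, and the points (not all intervals) of the 3 miRNAs of the miR-106a-363 cluster lie apart from the other 9 in both panels that involve the colon.

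Ratios within a library do not depend on the library size. oar-miR-106a accounted in the DU library for 2.55% (115 of 4505 reads, 2.13 to 3.06%) of the reads of oar-miR-17-5p and oar-miR-106a. Its share was 2.50% (77 of 3080 reads, 2.005 to 3.11%) in CE and 7.14% (204 of 2856 reads, 6.25 to 8.15%) in CO. The interval of the CO library lay above the other two, which overlapped. The CO library was also the highest for miR-20b among the reads of miR-20a and miR-20b, with 0.531% (0.430 to 0.655%), 0.543% (0.428 to 0.687%), and 1.22% (1.03 to 1.44%). For miR-363 in the sum of miR-92a and miR-363, the shares were 0.259% (0.225 to 0.298%), 0.263% (0.221 to 0.313%), and 0.415% (0.362 to 0.475%). Among all 12 cluster entries, the 3 miRNAs took 0.295% in DU (0.268 to 0.326%), 0.304% in CE (0.270 to 0.342%), and 0.608% in CO (0.559 to 0.661%) of the summed reads. The pairs were chosen after the counts had been seen.

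**Figure D3:**
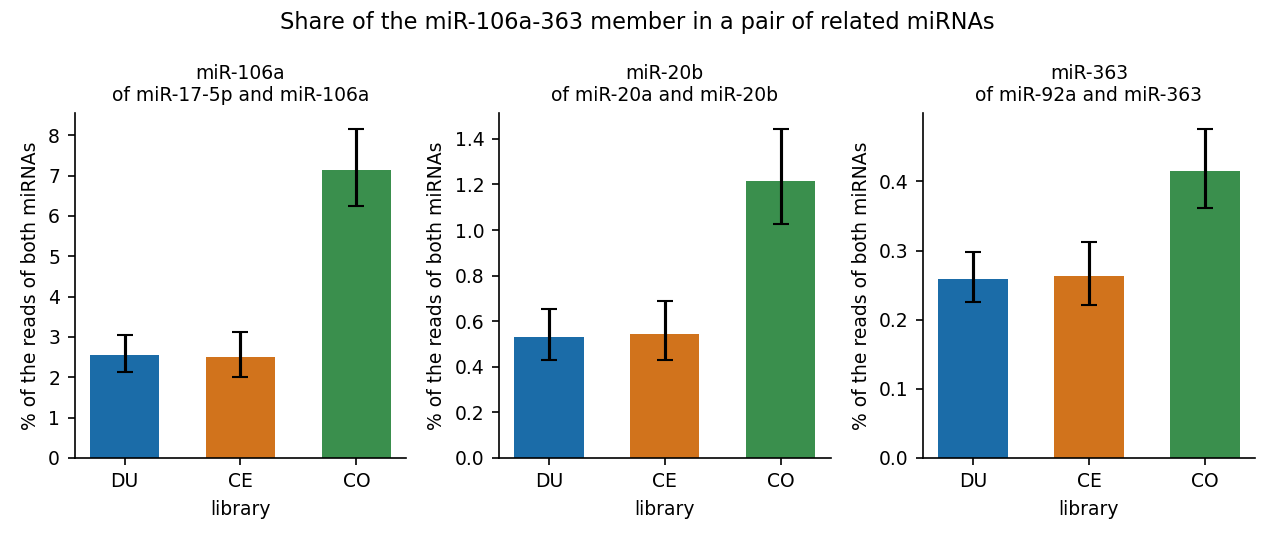
Share of the miR-106a-363 miRNA in the summed reads of a pair of related miRNAs (in percent, each axis from 0) in the DU, CE, and CO libraries, with Wilson 95% intervals. In all 3 pairs the bars of the duodenum and cecum are nearly level and that of the colon is higher, at 7.14%, 1.22%, and 0.415%.

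By seed, the miR-92 family held the most reads. Its 4 entries had 6394 (6356 to 6433), 4042 (4012 to 4073), and 4276 (4245 to 4308) normalized reads, and miR-25 took 28.5%, 28.1%, and 28.7% of them. The 6 entries with the seed of miR-17 had 1584 (1564 to 1603), 1201 (1184 to 1217), and 1087 (1071 to 1103) normalized reads. Of the reads of this family, miR-20a took 60.8%, 61.0%, and 59.5%, oar-miR-17-5p 16.6%, 14.7%, and 14.7%, and oar-miR-106b 5.44%, 5.51%, and 6.38%. oar-miR-106a took 0.434%, 0.377%, and 1.13%, so its higher level in the CO library hardly weighed in the family. Between the CO and CE libraries, the family with the seed of miR-17 leaned to the CE library with a log2 ratio of 0.14 (0.11 to 0.17). The miR-19 family, which was oar-miR-19b for 76.6%, 79.5%, and 80.0% of its reads, had 103, 80.5, and 75.5 normalized reads. No family sum reached a fold change of 2 in any of the 3 comparisons.

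The 3 known miRNAs whose profile over the libraries was closest to each of 3 members, 1 per cluster, were found by the Euclidean distance of centred log2 normalized reads among 82 known miRNAs with at least 50 reads in each library. With only 3 libraries, many profiles are alike. For oar-miR-25, they were oar-miR-29b (distance 0.0322), oar-miR-29a (0.0374), and oar-miR-26b (0.0444). For oar-miR-17-5p, they were oar-let-7i (0.0846), oar-let-7c (0.136), and oar-miR-103 (0.144). For oar-miR-106a, the distances were larger, with oar-miR-200a (0.377), oar-miR-200b (0.429), and oar-miR-200c (0.735), all of the epithelial miR-200 family. oar-miR-200a had 6756, 5122, and 9655 normalized reads.

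In pooled tissue, fewer cells of a type and less RNA per cell cannot be told apart. Markers of cell types also differed between the libraries. Of 4 leukocyte markers, 2 were linked to entries, and their sum was 895, 471, and 619 normalized reads, with miR-155 at 606, 322, and 444 and oar-miR-150 at 289, 149, and 175. Of 9 epithelial markers, 8 were linked, with sums of 160148, 58411, and 50461 normalized reads. Of these 8, 3 were highest in DU and 5 in CO, the latter being the miR-200 family with miR-141 and miR-429. The miR-192 entries were listed at 0 in the CO library, and without them the sums were 102342, 29564, and 50461. Of these sums, miR-215 alone gave 55441, 435, and 4830. Of 4 smooth muscle markers, 3 were linked, with sums of 278109, 432256, and 402112, almost all of it oar-miR-143. The others did not follow this sum, with miR-145 nearly level at 2591, 2619, and 2580 and oar-miR-133 at 236, 534, and 294. The 3 red blood cell markers had sums of 41.6, 38.8, and 28.7, with miR-451 at 0 reads in each library. The endothelial miR-126 had no linked entry. The sums of the leukocyte, epithelial, and red blood cell markers were, like 4 of the 5 members, highest in the DU library, and that of smooth muscle in CE. The epithelial sum was carried to a large part by miR-192 and miR-215, while 5 of its 8 markers were highest in CO. The part of any of these cell types in the values of the members was not tested.

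The library size moved the ratios to the DU library. When the reads of oar-miR-143 were left out of the library size, an alternative chosen after the counts had been seen, the log2 ratio of every entry shifted by 0.34 from DU to CE and by 0.27 from DU to CO. The median over the known miRNAs tested shifted by 0.42 and 0.33, since their number also changed, from 93 to 105 and from 94 to 102. The log2 ratio of CE to DU was then -0.34 for oar-miR-25, -0.23 for oar-miR-17-5p, -0.04 for oar-miR-106b, and 0.04 for oar-miR-19b, so that the last changed its direction. The log2 ratio of CO to DU of oar-miR-106a was then 1.11 with a corrected p of 7.77e-09 (exact Audic-Claverie test), past a fold change of 2. Over 7 library sizes, the log2 ratio of CE to CO of oar-miR-106a stayed between -1.54 and -1.37.

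**Figure D4:**
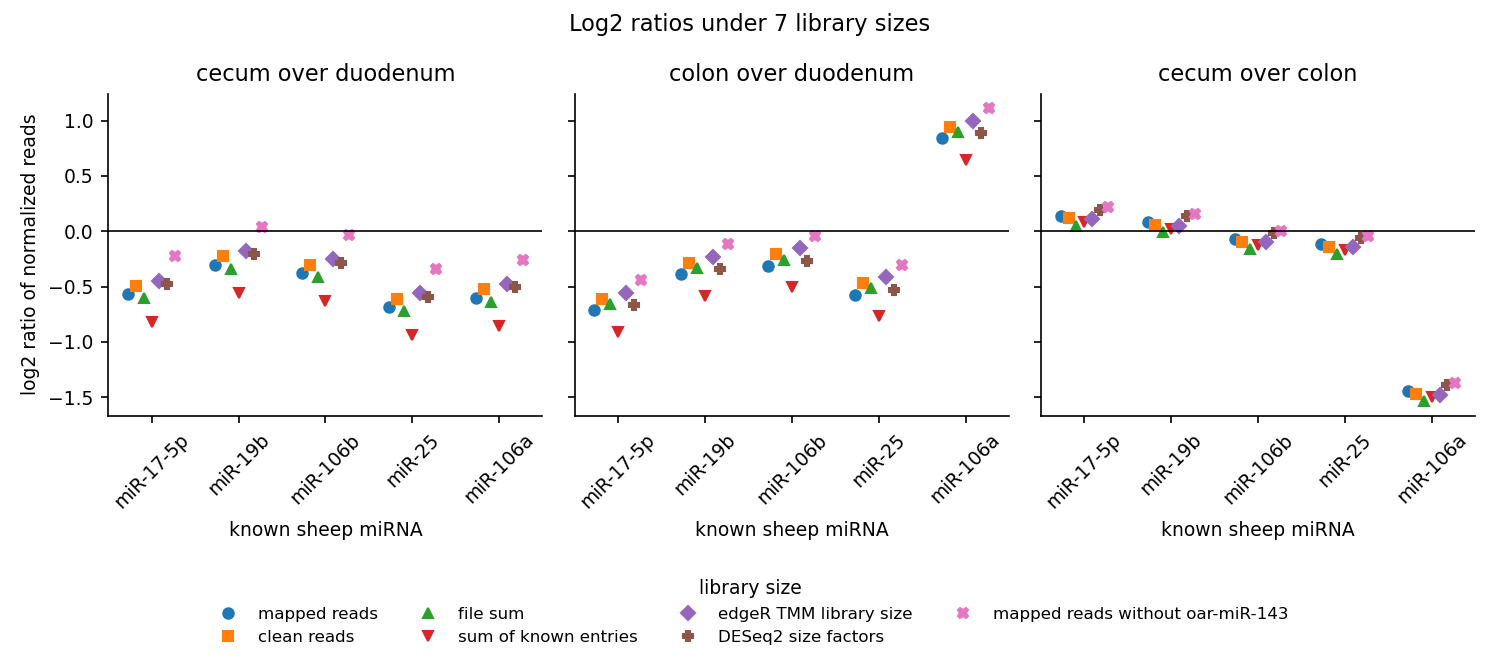
Log2 ratios of the 5 members under 7 library sizes (symbols), in the comparisons of cecum over duodenum, colon over duodenum, and cecum over colon. The library size shifts all members of a panel by the same amount and brings 1 member, oar-miR-19b, above 0 from DU to CE, and from CO to CE oar-miR-19b and oar-miR-106b change sides near 0, while oar-miR-106a keeps its side in all 3 panels.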

How the data were processed

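Small RNA was sequenced in 1 pooled library per segment. As the methods of the study state, the authors removed low-quality, adapter, insert-free, polyA, and short reads, mapped the clean reads to Oar_v4.0 with SOAP (the submitters' processing notes name Bowtie), matched them by BLAST to miRBase 21 for the known miRNAs, and used miReap for the predicted ones. The deposited values are raw read counts per mature sequence, without normalization. In predicted entries, the smallest count above 0 was 5 reads, so a 0 there may hide fewer reads. Whether a 0 can also hide more reads was not tested. The predicted miR-192 entries had 57806, 28847, and 0 normalized reads in DU, CE, and CO. For log2 ratios a 0 was set to 0.01 normalized reads, so a tested entry with 0 reads in 1 library always passed the fold change.

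The members, lists, and tests were chosen with earlier results of these data known. Named entries were the members, the entries linked to the other cluster miRNAs and to the seed relatives, and for 1 member per cluster the 3 known miRNAs with the closest profile. The study's clean reads mapped to the genome were the library size, where the study's own formula divides by all clean reads, tried here as an alternative. Libraries were compared in pairs with the Audic-Claverie test (2 times the smaller tail), with scipy 1.17.1. Bonferroni correction was over entries that reach 1 normalized read in 1 of the libraries or both. The code was first tested on simulated data, with a pass condition for counting noise only. The quasi-likelihood test of edgeR needs replicates and was not used. edgeR 4.0.16 and DESeq2 1.42.0 served for alternative library sizes and the exact test with an assumed spread. Clean reads, the sum of the counts, the sum of the known miRNAs, and mapped reads without oar-miR-143 were tried as well, as were other filters, a pseudocount of 1 read, Benjamini-Hochberg correction, and the addition of nested entries. Mature sequences in the study's supplement linked names to entries. RefSeq gene names and neighbours came from ARS-UI_Ramb_v3.0. No genome was used here, so no coordinates are given.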

Additional observations from a re-analysis of the deposited data

How the results depend on the processing

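The calls and log2 ratios of the members were recomputed under 12 planned settings, and the sums of clusters and seed families under 6, each with 1 more chosen after the data had been seen (mapped reads without oar-miR-143). Shares within a library and closest profiles had no alternative. The number of members called from CO to CE went from 1 to 0 when a spread between libraries was assumed in edgeR (coefficient of variation 0.2 or 0.4). The number called from DU to CO went from 0 to 1 without the reads of oar-miR-143. The sum of the miR-106a-363 cluster was the 1 cluster sum with a fold change of 2 from CO to CE, and there were 0 such sums with DESeq2 size factors or without the reads of oar-miR-143. The log2 ratio of oar-miR-19b changed its direction from DU to CE without the reads of oar-miR-143 (0.0399) and from CO to CE with the sum of the counts as library size (-0.0102), and that of oar-miR-106b from CO to CE without the reads of oar-miR-143 (0.0055). No other log2 ratio of a member changed its direction in the settings run. The assumed spread makes the test itself stricter, and library sizes change all entries by a common factor. oar-miR-106a had only 77 reads in the CE library, and without replicates the spread between animals is unknown. No paired analysis was possible because each segment has 1 pooled library, and for the same reason no library could be left out.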
